A study of Mus musculus with 16 samples.

Results

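Marchf6 and the genes around it on mouse chromosome 15 were followed by RNA-Seq in memory CD4+ T cells of the spleen. The 6 genes are Marchf6, the pseudogene Gm49215 that lies inside it, and the flanking genes Cct5, Cmbl, Dap and Ankrd33b, out of 56748 genes in the count table. They were chosen by measured values: in cells lacking HP1γ, Marchf6 was lower and Gm49215 higher than in the littermate controls, and the flanking genes serve as the comparison. Values of these genes in that contrast are therefore a description, with no p-value, and nothing is supported by which of them pass the threshold there.

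Memory cells, sorted as CD4+CD25low/-CD62L-CD44high, came from the spleen of male mice aged 6 to 12 weeks whose background mixed 129/Sv and C57BL/6, with 4 samples in each of 4 groups. HP1a KO mice were Hp1a-/- animals, whose floxed sequence had been excised in every tissue by a CMV-cre transgene, and HP1a WT were their Hp1a+/+ littermates. HP1g KO and HP1g WT littermates were all homozygous for a floxed Hp1g allele, and only the KO carried the Cd4-cre transgene, which is active in T cells from the thymus onwards. Cre and absence of HP1γ thus went together here, and their effects cannot be told apart. The labels also give a treatment with transferred cells, which goes against the methods for memory cells and was left aside.

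HP1α and HP1γ are chromatin proteins that bind methylated histone H3 lysine 9 and take part in silencing genes and repeats. MARCHF6 is a ubiquitin ligase of the RING-CH family that spans the membrane of the endoplasmic reticulum many times. It marks misfolded proteins and several enzymes and regulators, among them squalene monooxygenase of cholesterol synthesis, for degradation by the proteasome. Processed pseudogenes such as Gm49215 are copies of a messenger RNA that were inserted into the genome, usually without a promoter of their own.

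Total estimated counts ran from 26694045 to 40199637 per sample. Each targeted gene was lower in the KO of its own line. Cbx5, which encodes HP1α, ranged from 23.0 to 29.0 CPM, which are counts scaled to library size, in HP1a KO and from 33.8 to 54.0 CPM in HP1a WT (two-sided exact permutation test, p = 0.0286, which no comparison of 4 with 4 samples can go below). In edgeR, whose quasi-likelihood p-values were adjusted by Benjamini-Hochberg over all genes, the Cbx5 difference was not called (adjusted p = 0.946). A low Cbx5 level was not particular to HP1a KO. It ranged from 20.1 to 29.8 CPM in HP1g KO and from 27.1 to 37.4 CPM in HP1g WT, groups that overlapped and were not called different (edgeR adjusted p = 0.465). Cbx3, which encodes HP1γ, ranged from 45.9 to 50.3 CPM in HP1g KO and from 73.4 to 92.5 CPM in HP1g WT. T cell markers (Cd3e, Cd3d, Cd4, Trac and Cd5) summed to between 3292 and 3883 TPM, a level per transcript length, in every sample, and Cd44 was at 132 TPM or more. The regulatory T cell gene Foxp3 was at 34.2 TPM or more in every sample, although the sort took CD25low/- cells. Other cell types left traces: in HP1g KO, all 4 B cell, all 4 myeloid, both CD8 T cell and both erythroid markers had a higher mean than in HP1g WT. All 4 B cell, both CD8 T cell and 3 of 4 myeloid markers also had a higher mean in HP1a KO than in HP1a WT. The erythroid markers went the other way there, with 0 of 2 higher in HP1a KO. Of the 2 NK cell markers, 1 had a higher mean in the KO in each line. Summed erythroid markers ran from 161 to 2390 TPM in HP1g KO and from 83.3 to 1032 TPM in HP1g WT. The myeloid sums ran from 41.8 to 91.8 and from 24.8 to 50.7 TPM, and the B cell sums from 8.08 to 14 and from 5.44 to 12 TPM. The CD8 T cell sums ran from 7.77 to 18 TPM in HP1g KO and from 5.95 to 9.14 TPM in HP1g WT. S100a8 was the only marker of these lists listed at 0 in a sample. The part of these traces in the results was not tested. Fewer cells of a type and less RNA per cell cannot be told apart in bulk samples.

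On GRCm39, Marchf6 (ENSMUSG00000039100) is read from the minus strand of chromosome 15, from base 31531252 down to 31454566, in 26 exons. Gm49215 (ENSMUSG00000115224) is 350 bases long, from 31521070 to 31521419, on the same strand. It lies in the first intron of Marchf6, which is 21.0 kb long, 9.83 kb from the start of Marchf6 and 11.1 kb before the second exon, and it overlaps no annotated exon of Marchf6. The nearest member upstream is Cmbl (ENSMUSG00000022235, plus strand, 31565491 to 31590268), whose end overlaps the end of Cct5 (ENSMUSG00000022234, minus strand, 31588834 to 31601959) by 1435 bases. On the downstream side lie Ankrd33b (ENSMUSG00000022237, minus strand, 31275900 to 31368250) and Dap (ENSMUSG00000039168, plus strand, 31224460 to 31275892), whose ends are 7 bases apart. The gene of HP1α, Cbx5, is on the same chromosome as Marchf6, 71.6 Mb away.

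Gm49215 matches part of the messenger RNA of Kpna2, an importin alpha that carries proteins into the nucleus, encoded on chromosome 11 (106879455 to 106890367, minus strand). The alignment covers 358 columns with 93.6% identity. The first 244 bases of Gm49215 align without a gap to bases 1115 to 1358 of a Kpna2 transcript, within its coding part, with 7 mismatches (97.1% identity). Both stretches are shown because they bear on how reads of the pseudogene are told from those of Kpna2. Between these stretches the bases differ only at the mismatches, printed in capitals. The Gm49215 stretch is chr15:31521176-31521419 on the minus strand, and both are printed 5′ to 3′ from the GENCODE transcripts of GRCm39.
Gm49215: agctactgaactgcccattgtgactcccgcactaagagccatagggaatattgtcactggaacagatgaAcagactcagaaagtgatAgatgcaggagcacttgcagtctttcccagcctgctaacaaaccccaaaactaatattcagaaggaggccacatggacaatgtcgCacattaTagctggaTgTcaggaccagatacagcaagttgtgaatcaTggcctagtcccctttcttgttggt
Kpna2: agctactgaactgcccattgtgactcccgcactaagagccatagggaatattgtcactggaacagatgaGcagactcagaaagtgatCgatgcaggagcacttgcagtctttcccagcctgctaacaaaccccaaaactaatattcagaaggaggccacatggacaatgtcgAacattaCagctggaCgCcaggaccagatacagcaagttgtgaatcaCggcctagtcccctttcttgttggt

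No other gene shared 150 or more bases with Gm49215 at 98% identity or more, and 11 genes did so at 90% or more, Kpna2 and its pseudogene Kpna2-ps among them. These 11 were not ranked as the source of Gm49215, and mismatches were listed for Kpna2 only. Kpna2 itself was not called in the HP1g line. It measured 28.7, 30.2, 34 and 30.1 CPM in HP1g KO and 33.5, 31.8, 31.2 and 31.5 CPM in HP1g WT (log2 fold change -0.05 ± 0.0707 SE, edgeR adjusted p = 0.824).

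**Figure D1:**
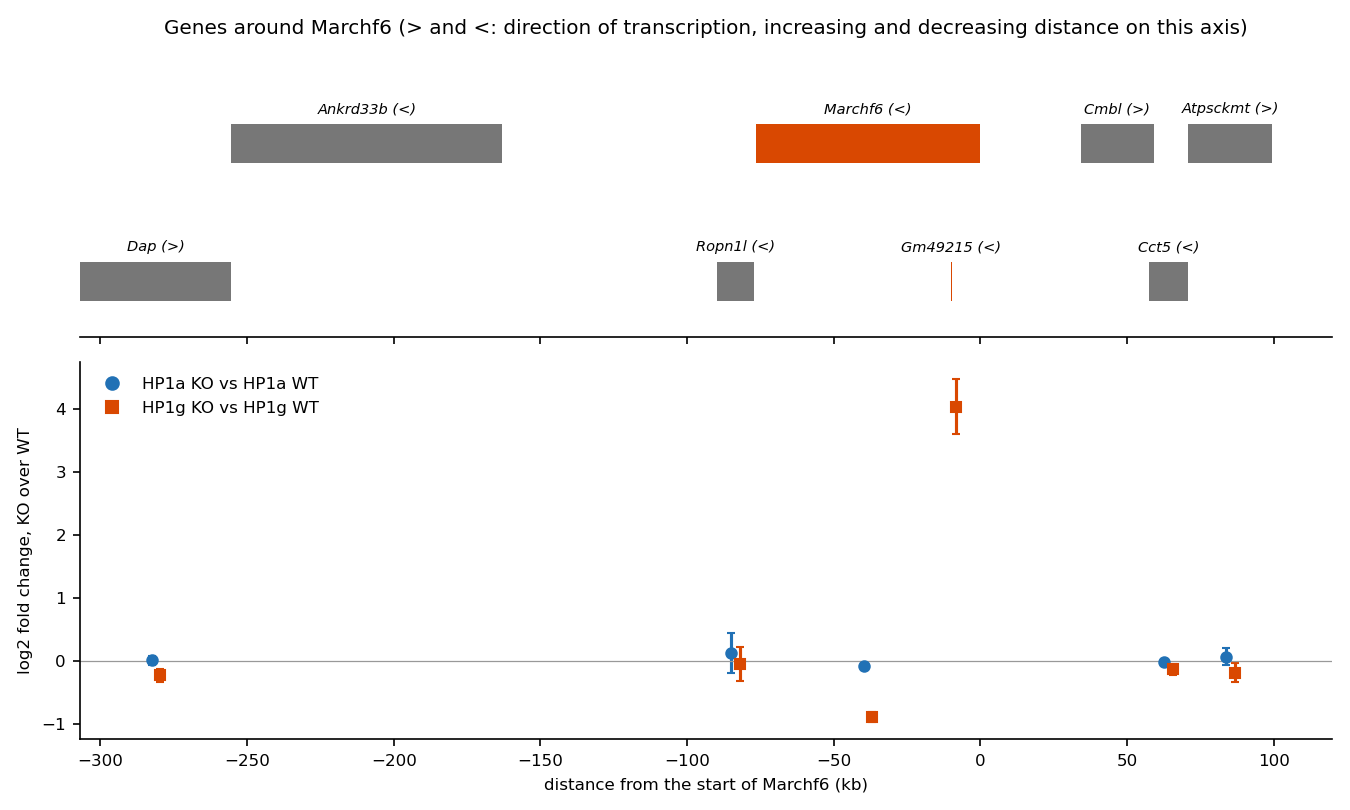
Genes around Marchf6 (upper panel, bars to scale) and their log2 fold changes, KO over WT, in each line (lower panel, means ± SE, 4 against 4 samples, at the middle of each gene), against the distance from the start of Marchf6 in kb, with negative distances on the side into which Marchf6 is transcribed. In the HP1g line Gm49215 stands at 4.03 and Marchf6 at -0.89, and Dap, Ropn1l, Cct5 and Atpsckmt between -0.23 and -0.05; Cmbl and Ankrd33b, and Gm49215 in the HP1a line, had too few counts for the fit.

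Marchf6 was lower in HP1g KO than in every other group. Its estimated counts were 1520, 1599, 1428 and 1881 in HP1g KO replicates 1 to 4 and 3072, 3833, 3140 and 3059 in HP1g WT. Scaled to library size, these are 57.6, 54.4, 46.6 and 48.3 CPM in HP1g KO and 99.6, 97.7, 95.4 and 93.0 CPM in HP1g WT. The groups did not overlap, and the highest HP1g KO sample was well under the lowest WT sample. The HP1g KO mean, 51.8 ± 5.16 CPM (SD, n = 4), was 53.7% of the HP1g WT mean, 96.4 ± 2.85 CPM. The log2 fold change was -0.89 ± 0.0774 (SE), which is short of the absolute value of 1 that the study asked of a differentially expressed gene.

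In the HP1a line Marchf6 was not called. HP1a KO samples measured 89.0, 87.4, 88.7 and 89.9 CPM, and HP1a WT samples 87.0, 105, 89.2 and 95.3 CPM. The HP1a KO samples lay within the range of their WT littermates. The log2 fold change was -0.08 ± 0.0641 (SE, edgeR adjusted p = 0.946). In the order of the means, HP1g WT at 96.4, HP1a WT at 94.1 and HP1a KO at 88.8 CPM, no neighbouring groups were called different, and HP1g KO came last.

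**Figure D2:**
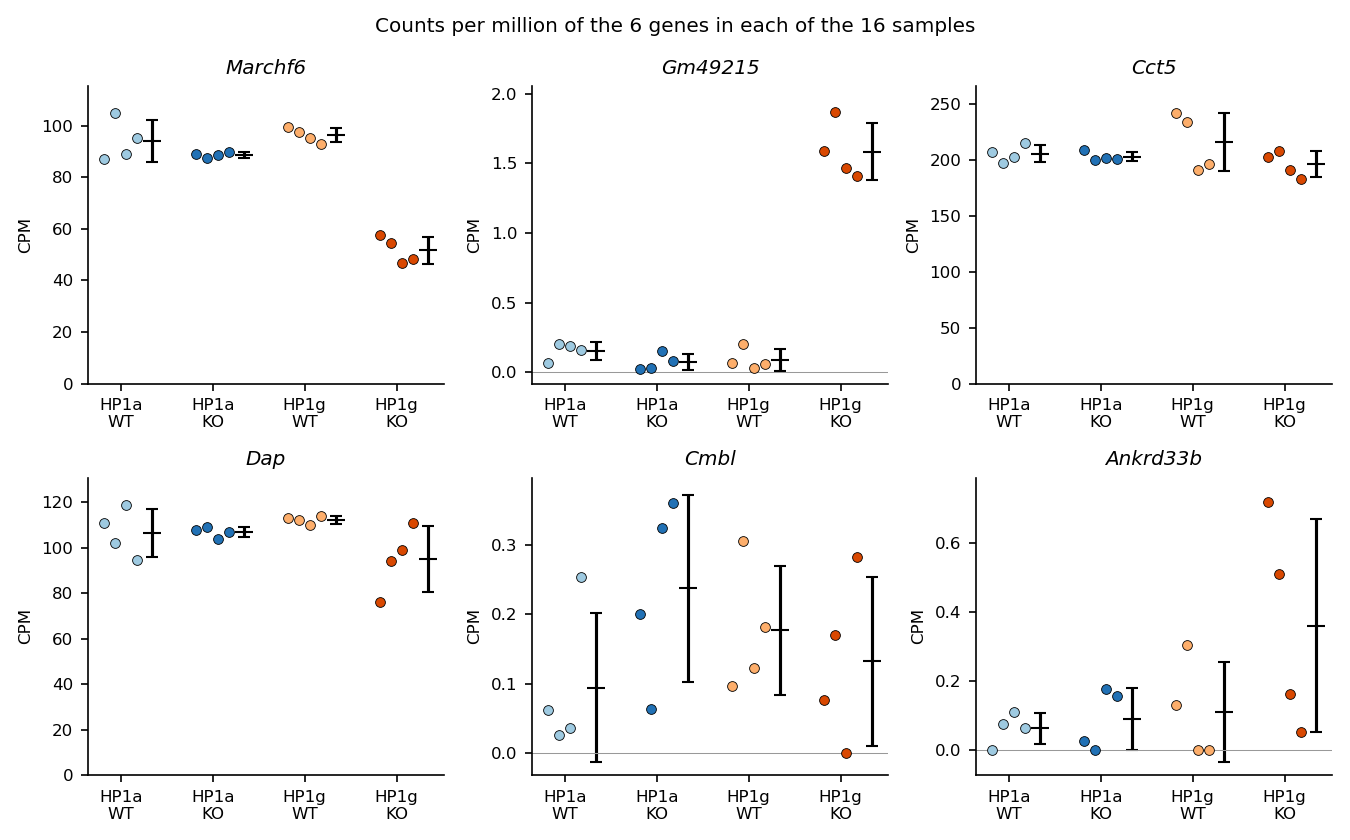
CPM of each of the 6 genes in the 16 samples, by group (4 points each, replicates 1 to 4 from left to right; the bar beside them is the mean ± SD). Marchf6 lies between 46.6 and 57.6 CPM in HP1g KO and between 87.0 and 105 CPM elsewhere, and Gm49215 between 1.41 and 1.87 CPM in HP1g KO and at 0.205 CPM or less elsewhere, while the groups overlap for the flanking genes.

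Gm49215 went the other way. HP1g KO replicates held 42, 55, 45.0 and 55 estimated counts, and HP1g WT replicates 2, 8.06, 1.01 and 1.86. In CPM these are 1.59, 1.87, 1.47 and 1.41 in HP1g KO against 0.0648, 0.205, 0.0306 and 0.0565 in HP1g WT. Every HP1g KO sample was above every sample of the other groups. The log2 fold change was 4.03 ± 0.437 (SE). It rests on few counts in the WT, of which replicate 2 holds most, and without that sample the log2 fold change was 4.84. On log2(TPM + 1), where the pseudocount weighs on low values, it was 3.12.

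In the HP1a line Gm49215 stayed near the limit of detection, with 1, 1, 5.05 and 3 estimated counts in HP1a KO and 2, 8.02, 5 and 5 in HP1a WT. These counts were below the filter on low counts, so that edgeR did not test the gene there. The groups overlapped, at 0.0707 ± 0.0569 CPM in HP1a KO and 0.152 ± 0.0621 CPM in HP1a WT (SD, n = 4, exact permutation test of the means, two-sided, p = 0.114). A difference was not detectable at this depth, where 3 counts in HP1a WT replicate 1 are 0.0938 CPM.

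Compared per length, the pseudogene reached a level close to that of its host gene in HP1g KO. Gm49215 measured 13.5, 16.1, 12 and 11.6 TPM in HP1g KO replicates 1 to 4, and Marchf6 16.1, 19.0, 16.9 and 12.8 TPM. Gm49215 was thus at 83.6%, 84.8%, 71.0% and 91.0% of the TPM of Marchf6 in the same sample. In the other 12 samples this share ran from 0.805% to 6.28%. In TPM, the mean of Marchf6 was lower by 10.5 in HP1g KO than in HP1g WT (16.2 ± 2.57 against 26.7 ± 1.34 TPM, SD, n = 4), and that of Gm49215 higher by 12.6 (13.3 ± 2.03 against 0.706 ± 0.623 TPM). In CPM, which is not divided by length, the Marchf6 mean differed by -44.7 and the Gm49215 mean by 1.5, so that Gm49215 held between 2.76% and 3.44% as many counts as Marchf6 in HP1g KO. TPM of a feature of 350 bases depends on the length that the authors' quantification assigned to it.

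**Figure D3:**
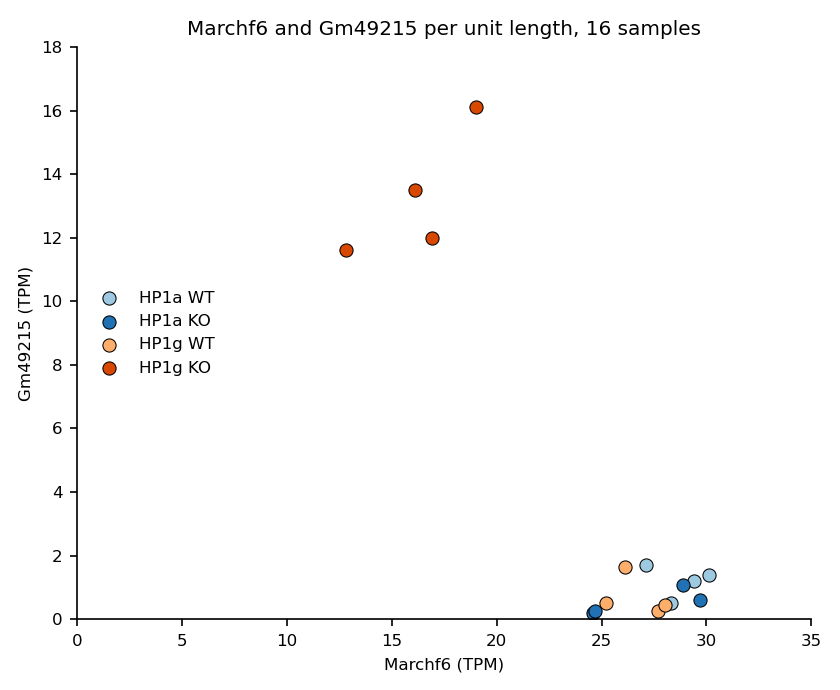
TPM of Marchf6 (x axis) and of Gm49215 (y axis) in the 16 samples, 1 point per sample, coloured by group. The 4 HP1g KO samples lie at 12.8 to 19.0 TPM of Marchf6 and 11.6 to 16.1 TPM of Gm49215, apart from the other 12, which hold 24.6 TPM or more of Marchf6 and 1.71 TPM or less of Gm49215.

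The transcript length behind the TPM of Marchf6 varied between samples. The ratio of counts to TPM, scaled to the median gene of each sample and to a mean of 1 for the gene, ran from 0.837 to 1.18 for Marchf6 over the 16 samples. It was 1.1, 0.903, 0.842 and 1.18 in HP1g KO replicates 1 to 4, with a group mean of 1.01 against 1.06 in HP1g WT. The same ratio stayed between 0.98 and 1.02 for Cct5. The length assigned to Marchf6 thus varied within every group, and the HP1g KO samples ran over nearly the same range as the others.

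Among the flanking genes, Cct5 and Dap were well expressed. Cct5, a subunit of the chaperonin TRiC/CCT that folds actin, tubulin and other proteins, measured 203, 208, 191 and 183 CPM in HP1g KO and 242, 234, 191 and 196 CPM in HP1g WT. The groups overlapped, and the log2 fold change was -0.13 ± 0.0874 (SE). Cct5 in the HP1a line was at 203 ± 4.31 CPM in the KO and 206 ± 7.8 CPM in the WT (SD, n = 4), a difference that was not called (log2 fold change -0.02 ± 0.0484 SE, edgeR adjusted p = 0.978).

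Dap, which encodes the death-associated protein 1 described as a regulator of autophagy, measured 76.1, 94.0, 99.2 and 111 CPM in HP1g KO and 113, 112, 110 and 114 CPM in HP1g WT. HP1g KO replicates 1, 2 and 3 were below every WT sample and replicate 4 was among them. The log2 fold change was -0.23 ± 0.0983 (SE) and lay between -0.31 and -0.14 when each sample was left out in turn. Dap in the HP1a line ran from 104 to 109 CPM in the KO and from 94.7 to 119 CPM in the WT, and it was not called (log2 fold change 0.01 ± 0.0699 SE, edgeR adjusted p = 0.996).

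Cmbl and Ankrd33b were barely detected in these cells. Cmbl, which encodes the hydrolase carboxymethylenebutenolidase, held from 0 to 14 estimated counts over the 16 samples. It measured 2, 5, 0 and 11 counts in HP1g KO and 3, 12, 4 and 6 in HP1g WT, so that these groups overlapped. Part of its sequence is shared with Cct5 through the overlapping ends, and reads there can be assigned to either gene only by strand. Ankrd33b, an ankyrin repeat protein gene, measured 19, 15, 5 and 2 counts in HP1g KO and 4, 12, 0 and 0 in HP1g WT. The groups overlapped here too, at 0.361 ± 0.309 and 0.109 ± 0.145 CPM (SD, n = 4). In the HP1a line the groups of both genes overlapped, and the exact permutation test of the means, two-sided, gave p = 0.171 for Cmbl and p = 0.6 for Ankrd33b.

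Of the 6 genes, 4 passed the filter on low counts in the HP1g line and 2 of them, Marchf6 and Gm49215, had an adjusted p under 0.05. Over all 14975 genes tested there, 0.327% did. Gm49215 passed the filter, here and in the fit of 16 samples, only through HP1g KO (42 to 55 counts, against at most 8.06 elsewhere). On log2(TPM + 1) and log2(TPM + 0.1), limma did not call Marchf6 (log2 fold change -0.70 and -0.73). The same genes were those whose groups did not overlap, against 7.11% of all genes tested. As the genes were picked on this contrast, nothing is read from these counts. In the HP1a line, 3 of the 6 genes passed the filter and edgeR called 0 of them, as it called 0 of all 14881 genes (0%). At an unadjusted p under 0.05 none of these 3 genes passed, against 635 genes of all (4.27%), and DESeq2 called 5 genes of all and none of the 6. None of the 6 genes had groups that did not overlap in the HP1a line, where 2.96% of the genes tested did.

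Set side by side, the effects in both lines lay furthest apart for Gm49215 and Marchf6 among the 4 genes fitted. The effect in the HP1g line minus that in the HP1a line, from a fit of all 16 samples, was 5.12 ± 0.769 (log2, SE) for Gm49215 and -0.81 ± 0.1 for Marchf6. It was -0.12 ± 0.102 for Cct5 and -0.24 ± 0.127 for Dap. These differences contain the contrast on which the genes were chosen and carry no test.

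Between the WT littermates of both lines, no difference in these genes was called. This comparison shares the HP1g WT samples with the contrast on which the genes were chosen, and line and breeding cannot be told apart in it. Its log2 fold changes, HP1a WT over HP1g WT, were -0.04 ± 0.0694 (SE) for Marchf6, -0.07 ± 0.0843 for Cct5 and -0.07 ± 0.0759 for Dap, with edgeR adjusted p of 0.758, 0.617 and 0.553. EdgeR and DESeq2 called 0 of the 6, of which 3 passed the filter, while edgeR called 12.8% of the 14804 genes tested. None of the 3 had an unadjusted p under 0.05, against 29.9% of all genes tested. None had groups that did not overlap, against 19.5% of all genes tested. For Gm49215, the WT groups stood at 0.152 and 0.0893 CPM (exact permutation test, two-sided, p = 0.343).

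Beyond the 6, the count table holds 25 further genes within 1 Mb of Marchf6. Of these, 15 were at 0 counts in all 16 samples and 4 passed the filter on low counts, namely Atpsckmt, Gm49284, Ctnnd2 and Ropn1l. EdgeR, DESeq2 and limma called 0 of these 4 in the HP1g line, in the HP1a line and between the WT groups, and none had an unadjusted p under 0.05 by edgeR. Their median log2 fold change was -0.05 in the HP1g line and 0.10 in the HP1a line, beside 0.00 over all genes in both.

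Atpsckmt, a mitochondrial methyltransferase gene that starts 4 bases from the start of Cct5 on the other strand, was the most abundant of these neighbours. It stood at 6.69 ± 1.03 CPM in HP1g KO and 7.66 ± 1.08 CPM in HP1g WT (SD, n = 4, log2 fold change -0.19 ± 0.15 SE, edgeR adjusted p = 0.646). Ropn1l, a gene of sperm flagella that begins 0.7 kb beyond the end of Marchf6, had a log2 fold change of -0.05 ± 0.268 (SE, adjusted p = 0.96). Ctnnd2, a catenin gene of neurons, had the widest spread, with a log2 fold change of 0.88 ± 0.596 in the HP1g line and 1.01 ± 0.534 in the HP1a line, neither of them called (edgeR adjusted p = 0.587 and 0.946). Gm49284 had a log2 fold change of -0.05 ± 0.305 in the HP1g line. The pseudogene Gm46522, next by counts, held at most 8.64 counts in a sample and was not tested.

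Other transcripts annotated within or across Marchf6 were close to 0. The lncRNA Gm49216, which overlaps exons of Marchf6 on the same strand, held from 0 to 9 counts. It measured 1, 4, 2 and 2 counts in HP1g KO and 7, 7, 2 and 1 in HP1g WT. The pseudogene Gm49214 in intron 24 and the lncRNA Gm49208 across the end of Marchf6, both on the opposite strand, were at 0 counts in all 16 samples.

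The genes with which MARCHF6 works were described by lists, and none of their members was called in either KO line by edgeR, DESeq2 or limma. Of 35 genes of ER-associated degradation, all were tested, with a median log2 fold change of -0.02 in the HP1g line and a range from -0.22 to 0.15. At an unadjusted p under 0.05, edgeR picked 1 of them in the HP1g line, Erlec1, a lectin that recognises misfolded glycoproteins, and 0 in the HP1a line, where 11.9% and 4.27% of all genes tested passed that limit. The 2 most abundant were Bag6, a chaperone for membrane proteins (log2 fold change 0.08 ± 0.0596 SE, edgeR adjusted p = 0.603 in the HP1g line), and Vcp, the ATPase that pulls substrates out of the membrane (-0.11 ± 0.0647, adjusted p = 0.531).

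Of the 10 other members of the RING-CH family, 7 were tested, with a median of -0.03 in the HP1g line and a range from -0.14 to 1.01. The top of this range is Marchf8 (1.01 ± 0.509 SE). None had an unadjusted p under 0.05 in either KO line (11.9% of all genes in the HP1g line and 4.27% in the HP1a line). Marchf7, the most abundant of them, had a log2 fold change of 0.11 ± 0.138 (SE) in the HP1g line, and Marchf5, a ligase of the mitochondrial membrane, -0.03 ± 0.0997. The edgeR adjusted p was 0.776 for Marchf7 and 0.921 for Marchf5.

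The 12 genes for reported substrates of MARCHF6 and for sterol synthesis had a median of -0.03 in the HP1g line and -0.00 in the HP1a line. These are RNA levels, and amounts of the substrate proteins, which MARCHF6 marks for degradation, were not measured. The most abundant, Rgs2, a regulator of G protein signalling, was the only one of the 12 with an unadjusted p under 0.05 in the HP1g line, against 11.9% of all genes, and was not called (log2 fold change -0.34 ± 0.133 SE, edgeR adjusted p = 0.38). Insig1, which holds the sterol sensing machinery in the endoplasmic reticulum, came next by counts (0.05 ± 0.0888, adjusted p = 0.845). The 7 tested of 8 other TRiC/CCT subunits lay between -0.15 and -0.04 in the HP1g line, with a median of -0.08 beside -0.13 for Cct5, and none had an unadjusted p under 0.05. Cct2 and Cct4, the most abundant of them, stood at -0.15 ± 0.0817 and -0.04 ± 0.0751 (edgeR adjusted p = 0.498 and 0.881).

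Between the WT groups, where 12.8% of all genes were called, edgeR called 6 of the 35 genes of ER-associated degradation, 1 of the 7 RING-CH genes tested and 7 of the 12 substrate and sterol genes. Of the 6, Rnf5, a membrane ubiquitin ligase, was higher in HP1a WT (log2 fold change 0.48 ± 0.133 SE, adjusted p = 0.0405), and Ube2j1, Derl1, Rnf139, Rnf185 and Trim13 were lower, by -0.31 (Derl1) to -0.72 (Rnf185). Marchf7 was lower in HP1a WT (-0.58 ± 0.107, adjusted p = 0.0096). Of the 7, Fdft1 and Lss, enzymes of the squalene and lanosterol steps, were higher (0.47 and 0.49), and Rgs2, Insig1, Cyp51 and Dio2 were among the lower ones (-0.88, -0.67, -0.76 and -1.51). The value for Dio2 (SE 0.35) rests on low levels, with means of 0.334 CPM in HP1a WT and 0.954 CPM in HP1g WT. Cyp51, which acts on lanosterol in the same pathway, thus lay opposite to Fdft1 and Lss. None of the 7 tested TRiC/CCT genes was called by edgeR, DESeq2 or limma or had an unadjusted p under 0.05 there. Marchf6 itself stood at -0.04 in that comparison.

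**Figure D4:**
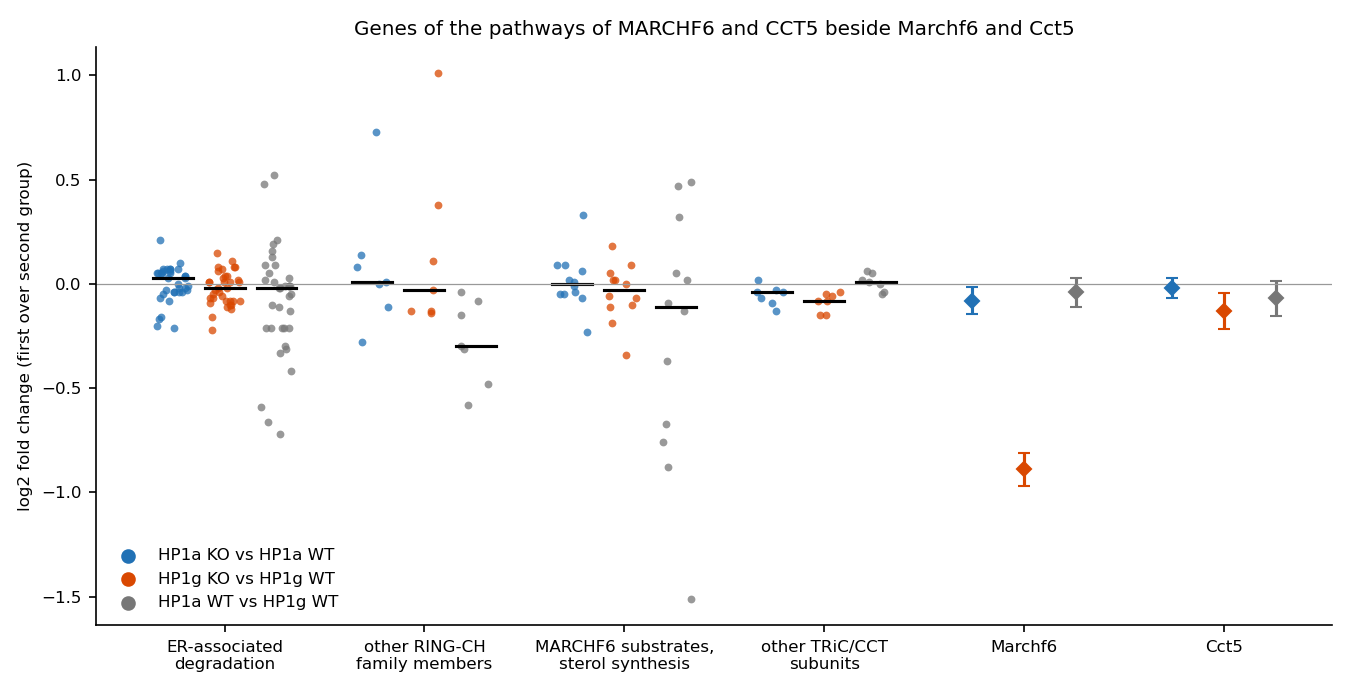
Log2 fold changes of the tested genes of 4 lists in 3 comparisons (points, 1 per gene; black lines, medians), beside Marchf6 and Cct5 with their SE. In the HP1g line Marchf6 lies at -0.89, while the genes of the ER-associated degradation list lie between -0.22 and 0.15; the points of the WT comparison (grey) reach from -0.72 to 0.52 in that list.

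The genes most like Marchf6 over the 16 samples were found by Pearson's r of log2 CPM with 15775 genes, as a description. These r largely restate the split of the 4 HP1g KO samples from the other 12. The highest were Cbx3 itself (0.94), Cdk4 (0.91), Ifi214 (0.89), Smyd2 (0.88) and Isoc2a (0.88). The lowest were Mbd1 (-0.97), Shisa6 (-0.93) and Myo5b (-0.93). Over the 12 samples other than HP1g KO, r with Marchf6 was 0.62 for Cbx3, -0.03 for Cdk4 and -0.25 for Mbd1.

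For Gm49215 the highest were Fat1, Dnah12, Myo5b and Mbd1 (0.93 each) and Gm49699 (0.92), and the lowest Lsm7 (-0.90), Chd1l (-0.89) and Marchf6 (-0.88). Myo5b and Mbd1 were among the extremes for both genes. Over the 12 samples other than HP1g KO, r between Gm49215 and Marchf6 was 0.41, where Gm49215 had at most 8.06 counts. With the flanking genes, r of Marchf6 over the 16 samples was 0.45 for Cct5 and 0.46 for Dap.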

How the data were processed

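The authors aligned the reads with STAR and quantified genes with Salmon on GRCm39, per the labels and the methods, and they deposited estimated counts per gene without normalization (11.6% of the values are not whole) and TPM. The library kit for mRNA keeps strand, but whether counting used strand is not given in the sources used here. Estimated counts were rounded and tested with edgeR 4.0.16 in R 4.3.3 (TMM, filterByExpr with a minimum count of 10, glmQLFit, glmQLFTest, Benjamini-Hochberg adjustment over all genes tested), each comparison in a fit of its own 8 samples and the difference of the KO effects in a fit of 16. A call is an adjusted p under 0.05. CPM were scaled by TMM over the 16 samples. Groups and replicate numbers come from the titles, which do not say that replicates are separate animals, so that p-values measure only the spread between these samples. All 24 replicate pairs differed by more than sampling noise (chi-square per gene 10.4 or more). Floors of 3 counts cover counting error only.

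Coordinates and transcripts are from GENCODE for GRCm39, not the release the authors counted on, and 56017 of 56748 genes were found in it. Shared sequence was searched with blastn 2.17.0. The alternatives were RLE size factors, no filter, at least 10 counts in every sample, DESeq2 1.42.0, all 16 samples in a single fit, a replicate block, limma 3.58.1 on log2(TPM + 1) and log2(TPM + 0.1), and each sample left out. The named genes are the 6 genes, those within 1 Mb (the called and the 5 with most counts), of each list the called and the 2 with most counts, the genes nearest by correlation, and Cbx5 and Cbx3. A called gene of the lists is not reported here by name. Other genes named were picked with their values in view. The members and lists were chosen with earlier results of these data known. Kpna2, the ratio of counts to TPM and the correlations without HP1g KO were added after seeing the data. The fits were tested on simulated data.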

Additional observations from a re-analysis of the deposited data

Results flagged for a closer look

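Gm49215 lay on opposite sides of the littermate mean in the KO groups of the lines: each HP1g KO sample was above the HP1g WT mean and each HP1a KO sample below the HP1a WT mean, HP1a KO replicate 3 by little (0.149 against 0.152 CPM). The fitted difference of the effects was 5.12 on the log2 scale. It was not tested, because the gene was chosen on the HP1g values, and the HP1a effect within it was not detectable at counts of at most 8.02 in a sample (log2 fold change -1.08 ± 0.726 SE without the filter on low counts).

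In 2 of the 24 sets of 4 samples (6 genes in 4 groups), a single sample stood apart from the other 3. Cct5 was at 209 CPM in HP1a KO replicate 1, and Cmbl was at 0.253 CPM, from 8 counts, in HP1a WT replicate 4. Chance sets apart about 1 in 20 such sets.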

How the results depend on the processing

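Of 162 recomputed log2 fold changes of single genes and of the genes nearby, 158 kept their side of the threshold or stayed within the spread between samples. In the HP1g line, 2 of the 6 genes were called, and 1 with at least 10 counts in every sample, which leaves Gm49215 untested, and 1 with limma on log2(TPM + 1) or on log2(TPM + 0.1), which did not call Marchf6 (log2 fold change -0.70 and -0.73). The difference of the KO effects for Gm49215 ran from 4.83 to 5.92 when each sample was left out, with 5.70 without HP1a KO replicate 3 and 5.92 without HP1g WT replicate 2. The log2 fold change of Gm49215 in the HP1g line, 4.03, was 4.84 without HP1g WT replicate 2 and 3.12 with limma on log2(TPM + 1).

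Over all genes, 49 were called in the HP1g line, against 31 with at least 10 counts in every sample, 255 with DESeq2, 96 with all 16 samples in a single fit, and 28 and 32 with limma on log2(TPM + 1) and log2(TPM + 0.1). Leaving out each sample gave 30 to 49 calls, with 30 without HP1g KO replicate 1 and 32 without HP1g KO replicate 2. In the HP1a line, 0 were called, against 1 without the filter, 5 with DESeq2, 1 with either form of limma, and 0 to 3 with each sample left out (3 without HP1a WT replicate 3 and 1 without HP1a WT replicate 4). Between the WT groups, 1896 were called, against 1175 and 1210 with limma, and 573 to 2185 with each sample left out. Those that moved this count by over 1.5 times were HP1a WT replicates 1, 2 and 4 (573, 1101 and 1040) and HP1g WT replicates 1 and 2 (613 and 626). The causes were not tested.

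Same-numbered KO and WT samples correlated in their deviations from the group means by 0.094 to 0.228 in the HP1a line and 0.003 to 0.153 in the HP1g line. Differently numbered samples ran from -0.3 to 0.18 in the HP1a line. In the HP1g line they ran from -0.301 (KO replicate 3 with WT replicate 2) to 0.281 (KO replicate 3 with WT replicate 4). The numbers were thus not taken to pair the samples. Replicates 1 and 2 went together across KO and WT, as did replicates 3 and 4. Within these sets the correlations ran from 0.082 to 0.228 in the HP1a line and from 0.003 to 0.281 in the HP1g line. Between the sets they ran from -0.3 to -0.064 and from -0.301 to 0.003. A block of these sets was not fitted, so the spread within groups and the SE contain any such difference. What the sets stand for is not given, and this grouping was not tested. With a replicate block, 577 genes were called between the WT groups, and the called genes among the 6 were 2, 0 and 0 in the HP1g line, the HP1a line and between the WT groups. Most places by Pearson's r did not hold by Spearman's rho: for Marchf6, Cbx3 was in place 19, but Cdk4, Ifi214, Smyd2 and Isoc2a in places 683, 270, 866 and 595, and for Gm49215, Gm49699 was in place 2 and Fat1 in place 8, but Dnah12, Myo5b and Mbd1 in places 105, 182 and 2322. From the lowest, Mbd1, Shisa6 and Myo5b were in places 49, 1346 and 788 for Marchf6, and Lsm7, Chd1l and Marchf6 in places 234, 208 and 3695 for Gm49215. Few counts limit Gm49215 outside HP1g KO, Cmbl and Ankrd33b. The genes within 2 Mb had a median log2 fold change of -0.05 in the HP1g line.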
